A study of Mus musculus with 6 samples.

Results

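A set of 10 keratin genes of stratified epithelia was followed in mouse cells that were induced to express HOXA13 and in their controls. They are Krt5, Krt14 and Krt15 of the basal layer, Krt6a, Krt6b and Krt17 of wounded or fast-growing epithelium, Krt4 and Krt13 of the upper layers of moist mucosa, and Krt1 and Krt10 of the upper layers of epidermis. The members were taken by gene symbol as classical keratins of these layers, and all 10 were found among the 24393 genes listed. The cells were KH2 mouse embryonic stem cells, a C57/BL/6 line with a docking site for doxycycline-inducible genes, grown on M15 feeders, a mesoderm-derived line, with Activin-A, bFGF, CHIR and Noggin. Doxycycline at 1.25 µg/ml was added from day 4, on day 6 cells positive for CXCR4 as well as E-cadherin were taken by sorting, and RNA was taken after a further day of culture with doxycycline. The 3 HOXA13 libraries came from clones targeted with a FLAG-tagged human HOXA13 gene, and the 3 CONTROL libraries came from control cells of the same line. The labels state neither what construct the CONTROL cells carry nor whether they received doxycycline, and a targeted clone limits the comparison to the clones chosen.

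Keratins are the intermediate filament proteins of epithelial cells. Each filament is built from pairs of an acidic type I and a basic type II chain, and the pair changes with the epithelium. Single-layered epithelia such as those of the gut use Krt8 with Krt18 or Krt19, while layered epithelia such as epidermis and esophagus use Krt5 with Krt14 in the basal layer and then Krt1 with Krt10 (epidermis) or Krt4 with Krt13 (esophagus and oral mucosa) above it. Krt15 is a further type I keratin of basal cells and of the hair follicle bulge, and Krt6a, Krt6b and Krt17 appear in wounds and in skin appendages. The type I members lie in a cluster on mouse chromosome 11 and the type II members in a cluster on chromosome 15.

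The members resemble each other in sequence, which bears on how reads can be assigned to them. In the type I set the stretch of 75 coding bases in which the 5 members are most alike lies in exon 3 of 8 of each gene, and 75 bases is also the read length. It is shown because these are the only members with reads in every library. Capitals mark the bases that differ from Krt15.
Krt15: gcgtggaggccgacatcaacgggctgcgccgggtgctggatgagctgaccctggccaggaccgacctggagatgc
Krt14: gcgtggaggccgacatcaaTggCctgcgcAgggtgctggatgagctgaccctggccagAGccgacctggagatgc
Krt17: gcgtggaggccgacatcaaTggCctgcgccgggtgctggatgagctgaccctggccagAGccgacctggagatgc
Krt13: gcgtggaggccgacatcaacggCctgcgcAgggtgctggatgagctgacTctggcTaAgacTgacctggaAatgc
Krt10: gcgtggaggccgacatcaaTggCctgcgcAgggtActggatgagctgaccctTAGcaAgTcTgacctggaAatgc
These windows were read 5′ to 3′ on the minus strand of the mouse build NCBIM37 (mm9) at chr11:99995542-99995616 for Krt15, chr11:100066315-100066389 for Krt14, chr11:100120540-100120614 for Krt17, chr11:99980989-99981063 for Krt13 and chr11:99248865-99248939 for Krt10. Krt17 differed from Krt15 at 4 bases, Krt14 at 5, Krt13 at 7 and Krt10 at 11. Over their whole coding sequences Krt15 and Krt13, which are neighbours, were 79.5% identical, and Krt14 and Krt17 were 84.1% identical. No 75-base window of the Krt15, Krt17, Krt13 or Krt10 transcripts occurred in an annotated protein-coding transcript of another gene. Of the Krt14 windows, 5.91% also occurred in Krt16. Pseudogenes and non-coding genes were not searched.

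In the type II set the most alike stretch lies in exon 5 of 9, and it is shown because it contains a pair that a read cannot tell apart. Capitals mark the bases that differ from Krt6a.
Krt6a: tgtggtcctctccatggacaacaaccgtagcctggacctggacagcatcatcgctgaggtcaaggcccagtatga
Krt6b: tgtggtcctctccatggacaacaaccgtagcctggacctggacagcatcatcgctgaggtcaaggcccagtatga
Krt5: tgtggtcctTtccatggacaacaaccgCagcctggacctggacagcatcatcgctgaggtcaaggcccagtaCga
Krt4: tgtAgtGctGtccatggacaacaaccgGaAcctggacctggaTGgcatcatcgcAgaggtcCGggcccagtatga
Krt1: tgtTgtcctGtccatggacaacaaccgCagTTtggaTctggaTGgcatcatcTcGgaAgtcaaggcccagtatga
The positions, again on the minus strand of mm9, were chr15:101522671-101522745 for Krt6a, chr15:101508492-101508566 for Krt6b, chr15:101540734-101540808 for Krt5, chr15:101751034-101751108 for Krt4 and chr15:101678240-101678314 for Krt1. Krt6a and Krt6b had 0 differences here and were 97.8% identical over their coding sequences. Of the 75-base windows of Krt6a, 39.4% occurred also in Krt6b, Krt5 or the gene model Gm5414, against 39.1% of the Krt6b windows and 5.03% of the Krt5 windows. How reads with several alignments were counted is not stated, so the values of Krt6a and Krt6b are uncertain.

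The libraries held 12279884 to 17331638 counts each. A level is given as normalised CPM, the counts put on a common library size by TMM scaling, which also corrects for the composition of each library. The floor of 3 counts was 0.176 to 0.240 CPM and covers counting error only. CONTROL 2 stood apart from the other CONTROL libraries, with a Spearman correlation over the tested genes of 0.908 with CONTROL 1 and 0.931 with CONTROL 3, against 0.977 between those and 0.951 to 0.961 between CONTROL 2 and the HOXA13 libraries. Results that rest on CONTROL 2 are given with and without it. The mouse Hoxa13 row, which need not count reads of the human transgene, held 0 to 10 counts in CONTROL and 0 to 5 in HOXA13, so it does not check the labels. The 12 markers of definitive endoderm were mixed. Sox17 and Cer1, which are named because they define this lineage, were at 0.975 to 4.84 CPM over the 6 libraries and at 0 counts in all of them. The most abundant markers were Eomes at 24.4 to 111 CPM, Gata4 at 13.1 to 31.9 CPM, Gata6 at 5.69 to 35.8 CPM and Cxcr4, the other gene of the sort, at 2.25 to 11.3 CPM. The labels name no batch, and p-values measure the spread between these libraries.

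Transcripts of the type I members were found in every library, while values of the type II members were mostly at or below the floor. Levels of both types overlapped in places, with Krt4 at 2.0 and Krt17 at 1.76 CPM in CONTROL 2. In HOXA13 1, Krt6a was at 2.23 and Krt13 at 1.69 CPM. Krt10, Krt13, Krt14, Krt15 and Krt17 were above the floor in all 6 libraries. Of the type II members, Krt6a was above the floor in 4 libraries, Krt5 in 3, Krt4 in 2, Krt1 in 1 and Krt6b in 0. Only the 5 type I members passed the filter on low counts, each with 12 or more counts in every library. None was called by edgeR's quasi-likelihood test at an adjusted p of 0.05, where 0.309% of all 13600 tested genes were called. At an unadjusted p under 0.05 the count was 2 members, Krt15 and Krt17, both higher in HOXA13 (8.05% of all genes were higher at this threshold). These were also the 2 members whose groups did not overlap, and 11.5% of all genes were higher in HOXA13 without overlap. DESeq2 and limma voom each called 1 member, Krt15. All 5 tested members had a log2 fold change above 0, as had 48.8% of all genes. Their median was 1.15, beside -0.01 over all genes tested. In bulk RNA fewer cells of a type and less RNA per cell cannot be told apart, and this holds for every level given here.

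**Figure D1:**
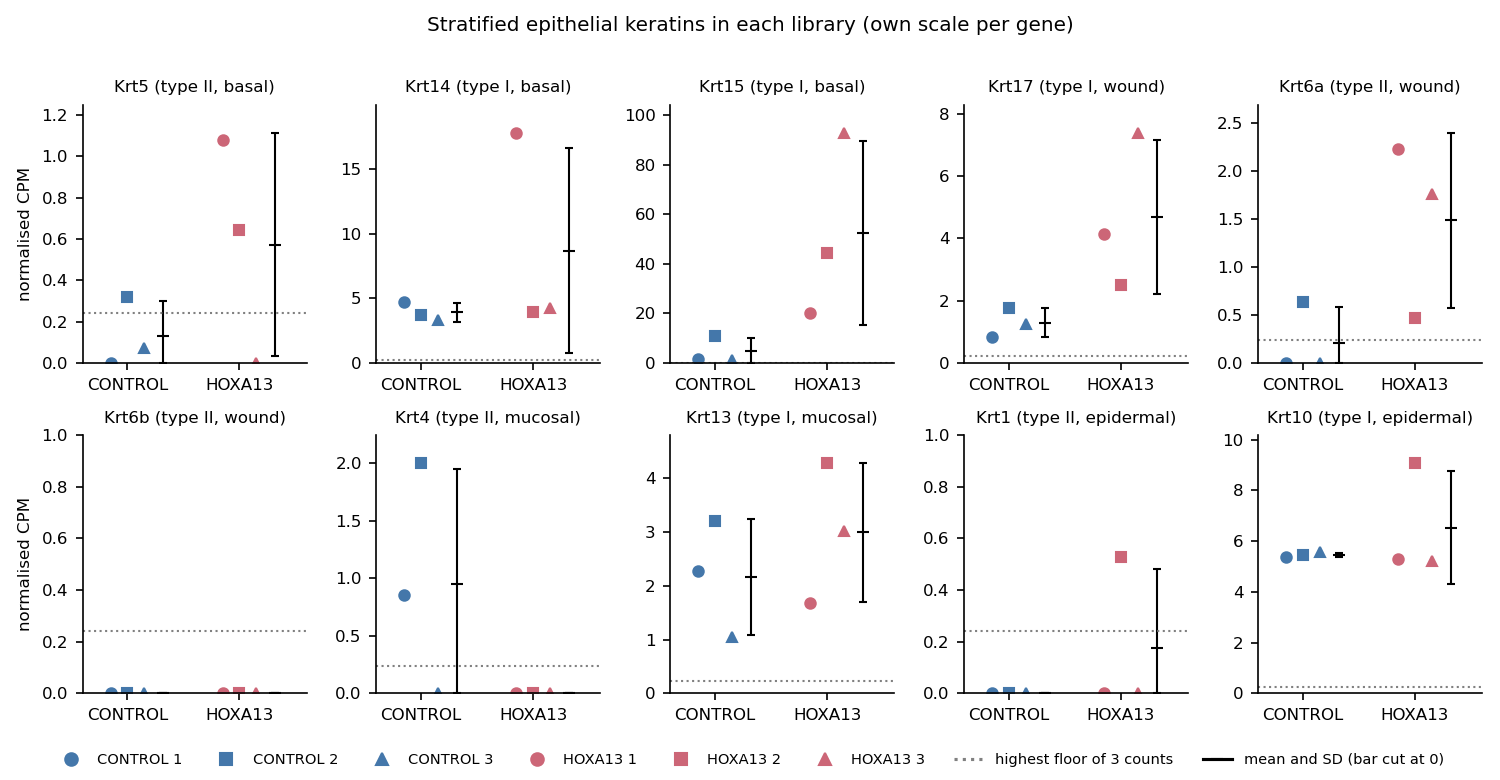
Normalised CPM of each keratin in the 3 CONTROL (blue) and 3 HOXA13 (red) libraries, on a linear scale of its own for each gene, with the mean and SD (n = 3) beside the points and the highest floor of 3 counts (0.240 CPM) as a dotted line. Krt15 and Krt17 are the members in which every HOXA13 library lies above every CONTROL library, and Krt6b is at 0 in all 6.

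Krt15 was the member with the largest difference. It had 26, 137 and 17 counts in CONTROL 1 to 3, or 1.84, 11 and 1.27 CPM, and 262, 754 and 1533 counts in HOXA13 1 to 3, or 20.1, 44.2 and 92.9 CPM. The lowest HOXA13 library was above the highest CONTROL library, which was CONTROL 2, and the HOXA13 libraries differed among themselves as well. The group means were 4.69 ± 5.43 CPM (SD, n = 3) and 52.4 ± 37.1 CPM (SD, n = 3). The log2 fold change was 3.49 ± 0.89 (SE), or 11.2-fold, with an adjusted p of 0.146 (edgeR quasi-likelihood, Benjamini-Hochberg), which does not pass the threshold. An exact two-sided permutation test gave p = 0.10, the smallest that 3 against 3 libraries allow. The call turned on the test and on CONTROL 2. Without CONTROL 2 the log2 fold change was 5.05 and the adjusted p 0.00326, in a fit that called 7.92% of all genes as higher, and with all libraries DESeq2 gave 3.46 with an adjusted p of 0.029 while calling 3.11% of all genes as higher. In limma voom, which called 9.11% of all genes as higher, it was 5.08 with an adjusted p of 0.0461. Over the 14 alternatives the log2 fold change was between 2.76 and 5.08, never below 0, and the adjusted p between 0.00326 and 0.543.

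Krt14, the type I partner of Krt5 in basal cells, was set apart by a single library. Its counts were 67, 46 and 44 in CONTROL, or 4.75, 3.68 and 3.3 CPM, and 232, 68 and 70 in HOXA13, or 17.8, 3.98 and 4.24 CPM. HOXA13 1 was far above the rest, and the other HOXA13 libraries lay within the CONTROL range. The means were 3.91 ± 0.753 CPM and 8.69 ± 7.92 CPM (SD, n = 3 each), with a log2 fold change of 1.15 ± 0.66 and an edgeR adjusted p of 0.501. Without HOXA13 1 the log2 fold change was 0.06. Krt5, the type II chain that pairs with Krt14 and Krt15 in basal cells, had 0, 4 and 1 counts in CONTROL and 14, 11 and 0 in HOXA13. Its groups overlapped and it did not pass the filter, and without a filter its edgeR adjusted p was 0.753. HOXA13 1, the library highest in Krt14, was also the highest in Krt5, at 1.08 CPM, while HOXA13 3, the highest in Krt15, had 0 counts of Krt5.

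Krt17, a type I keratin of wounded epithelium and of hair follicles, was higher in HOXA13 without overlap. Its counts were 12, 22 and 17 in CONTROL, or 0.851, 1.76 and 1.27 CPM, and 54, 43 and 122 in HOXA13, or 4.15, 2.52 and 7.4 CPM. The difference was smaller than that of Krt15, and its highest library was again HOXA13 3. The means were 1.3 ± 0.454 CPM and 4.69 ± 2.48 CPM (SD, n = 3 each), and the log2 fold change was 1.85 ± 0.69, or 3.61-fold, with an edgeR adjusted p of 0.284. It did not pass the threshold in any of the 13 alternatives that tested it, with a log2 fold change between 1.34 and 2.13 and an adjusted p between 0.108 and 0.774. The exact two-sided permutation p was 0.10. Krt6a, a type II partner of Krt17, had 0, 8 and 0 counts in CONTROL and 29, 8 and 29 in HOXA13, or 0, 0.64 and 0 CPM against 2.23, 0.469 and 1.76 CPM. CONTROL 2 lay above HOXA13 2, so the groups overlapped, and the exact permutation p was 0.2. Without CONTROL 2 they did not overlap, and Krt6a then entered the test with an edgeR adjusted p of 0.0648. With 0 counts in CONTROL 1 and CONTROL 3, Krt6a passed that filter through its HOXA13 counts alone, so no conclusion is drawn from this value. In the 6 alternatives that tested it the adjusted p was between 0.0648 and 0.814. Krt6b had 0 counts in all 6 libraries, although it shares much of its sequence with Krt6a.

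The keratins of the upper mucosal layers, which mark squamous esophagus, were low in both groups. Krt13 had counts of 32, 40 and 14 in CONTROL, or 2.27, 3.2 and 1.05 CPM, and 22, 73 and 50 in HOXA13, or 1.69, 4.28 and 3.03 CPM. The groups overlapped, and the log2 fold change was 0.47 ± 0.72 with an edgeR adjusted p of 0.836. Krt4, the type II partner of Krt13, was found only in CONTROL libraries, with 12, 25 and 0 counts (0.851, 2.0 and 0 CPM), and had 0 counts in the 3 HOXA13 libraries. Set against the highest HOXA13 floor of 0.231 CPM, its mean was at least 4.12-fold lower in HOXA13, and at least 1.85-fold lower without CONTROL 2. CONTROL 3 was at 0 as well, so the groups overlapped, with an exact permutation p of 0.4. Krt4 did not pass the filter, and in the 6 alternatives that tested it the adjusted p was between 0.173 and 0.678.

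Among the epidermal keratins, Krt10 was the steadiest member. It had 76, 68 and 74 counts in CONTROL, or 5.39, 5.44 and 5.55 CPM, and 69, 155 and 86 in HOXA13, or 5.3, 9.08 and 5.21 CPM. Every library but HOXA13 2 lay between 5.21 and 5.55 CPM, the log2 fold change was 0.26 ± 0.42 with an edgeR adjusted p of 0.845, and without HOXA13 2 it was -0.08. Krt10 overlaps a transcript on the opposite strand, Gm11940, and whether the counting used the strand is not stated. Krt1, the type II partner of Krt10 in epidermis, had 9 counts in HOXA13 2 (0.527 CPM) and 0 in the other 5 libraries, so no fold is given. The library with Krt1 reads was thus the one highest in Krt10. Without CONTROL 2 the log2 fold changes of Krt17, Krt14, Krt13 and Krt10 were 2.12, 1.08, 0.84 and 0.24, and none of these 4 was called, with edgeR adjusted p from 0.108 to 0.794.

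For Krt5 with Krt14, Krt1 with Krt10 and Krt4 with Krt13, both chains were above the floor in at most 3 of the 6 libraries. Krt5 and Krt14 were both above the floor in 3 libraries, where the log2 ratio of Krt5 to Krt14 in CPM was -3.52 in CONTROL 2, -4.05 in HOXA13 1 and -2.63 in HOXA13 2. The ratio of Krt1 to Krt10 could be formed in HOXA13 2 alone, at -4.11. Of these pairs, Krt4 and Krt13 were the closest to balance, with -1.42 in CONTROL 1 and -0.68 in CONTROL 2. The ratio of Krt6a to Krt17 was not formed, although both were above the floor in CONTROL 2 and in each HOXA13 library. Their counts were 8 and 22 in CONTROL 2, 29 and 54 in HOXA13 1, 8 and 43 in HOXA13 2 and 29 and 122 in HOXA13 3. For Krt8 and Krt18, the pair of simple epithelia, the log2 ratio was between -0.69 and -0.06 in the 6 libraries. In each library where a pair of members could be compared the type II chain was the lower, and for Krt5 with Krt14 and Krt1 with Krt10 by more than in any library of the simple pair.

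Per kilobase of exon the members stood far below Krt18, Krt8 and Krt19 in both groups. In normalised CPM per kb their mean levels in CONTROL were 827, 445 and 231, and those in HOXA13 were 1180, 825 and 602. On this scale the other simple keratins were nearer to the members, with Krt7 at 4.19 to 17.0 in CONTROL and 10.7 to 21.8 in HOXA13. Krt20 was at 0.29 to 2.61 in CONTROL and 5.5 to 8.89 in HOXA13. The place of Krt7 depends on its length, as its summed exons were 7049 bases, against 1400 for Krt18 and 1788 for Krt15. In CPM the means of Krt7 were 83.4 in CONTROL and 117 in HOXA13, against 4.69 and 52.4 for Krt15. In each CONTROL library, at 4.19, 14.3 and 17.0 in CONTROL 1 to 3, Krt7 was above every member. Krt15 was at 2.62 in CONTROL and 29.3 in HOXA13. In HOXA13 the order of the members per length was Krt15, Krt14 (4.94), Krt10 (3.12), Krt17 (2.97) and Krt13 (1.65). Krt15 was above every library of the next member, with 11.3 to 52.0 against 2.27 to 10.1 for Krt14, while the neighbours below Krt15 in this order overlapped. In CONTROL the order of the means was Krt15, Krt10 (2.61), Krt14 (2.22), Krt13 (1.19) and Krt17 (0.822), and of these neighbours Krt14, at 1.88 to 2.7, and Krt13, at 0.577 to 1.76, were the ones that did not overlap. The first place of Krt15 rested on CONTROL 2, at 6.13, and without that library its mean was 0.872, below those of Krt10 (2.61), Krt14 (2.29) and Krt13 (0.911).

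**Figure D2:**
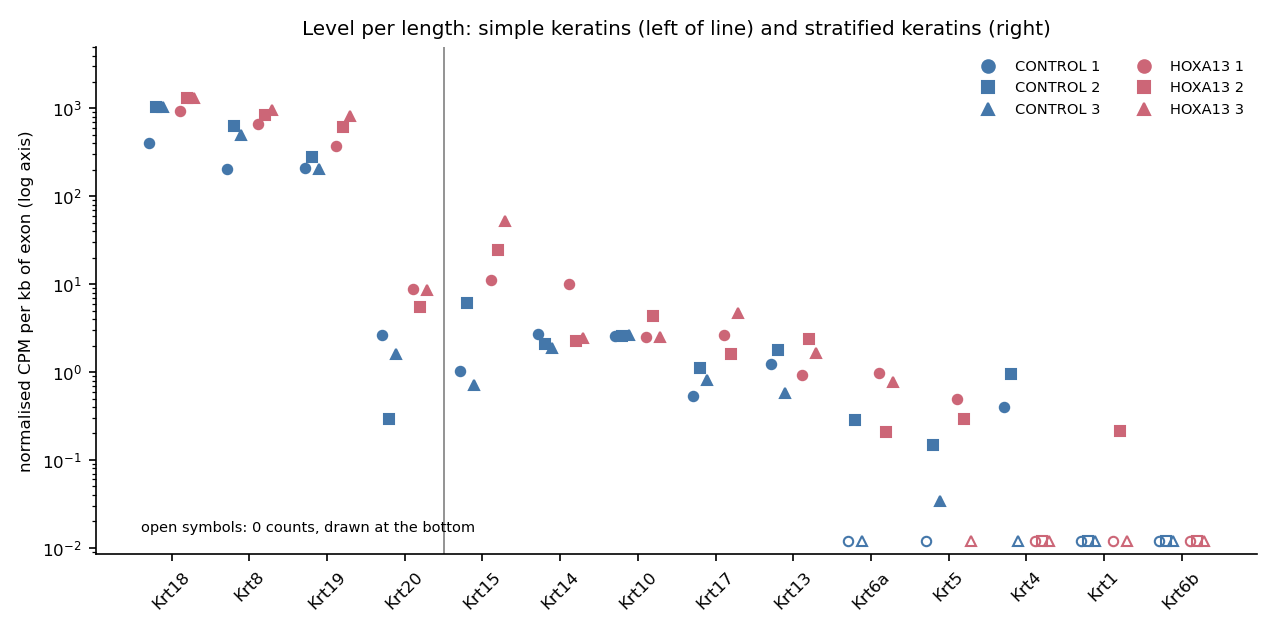
Normalised CPM per kilobase of exon in each library, on a log axis, for 4 simple keratins on the left of the line and the 10 stratified keratins on the right, CONTROL in blue and HOXA13 in red. The Krt8, Krt18 and Krt19 points lie above all points of the stratified keratins, among which the HOXA13 libraries of Krt15, at 11.3 to 52.0, are the highest.

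Krt15 made up most of the stratified keratin signal in the libraries where that signal was highest. Of the counts of the 10 members it took 11.6% (95% Wilson interval 8.01 to 16.4), 39.1% (34.2 to 44.3) and 10.2% (6.45 to 15.7) in CONTROL 1 to 3. In HOXA13 1 to 3 it took 38.4% (34.8 to 42.1), 67.3% (64.5 to 69.9) and 81.1% (79.3 to 82.8). CONTROL 2 and HOXA13 1 had like shares, and the groups overlapped in this measure by that pair alone. In CONTROL 1 and CONTROL 3 the largest share was that of Krt10, with 33.8% and 44.3%. The summed level of the 10 members was 12.5 to 28.0 CPM in CONTROL and 52.4 to 115 CPM in HOXA13. Without Krt15 it was 11.2 to 17.0 CPM in CONTROL and 21.5 to 32.3 CPM in HOXA13, so the groups did not overlap with or without it.

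**Figure D3:**
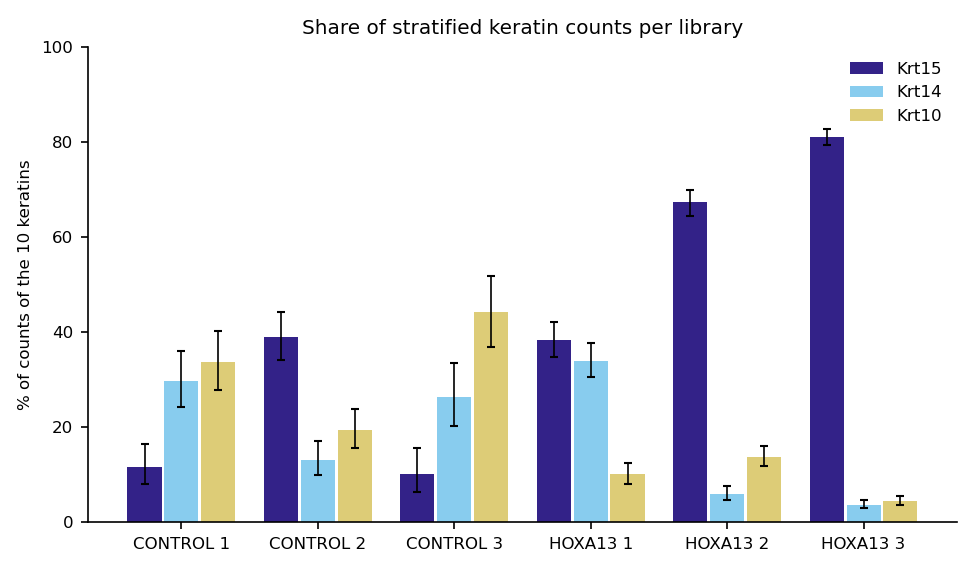
Share of the counts of the 10 stratified keratins taken by Krt15, Krt14 and Krt10 in each library, in percent, with 95% Wilson intervals that cover counting error only. The Krt15 share is the largest in HOXA13 2 and HOXA13 3, at 67.3% and 81.1%, while HOXA13 1 has near-equal shares of Krt15 and Krt14.

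As a share of all keratin counts the members remained small. They took 1.16%, 0.864% and 0.432% in CONTROL 1 to 3 and 1.52%, 1.32% and 1.91% in HOXA13 1 to 3. The 5 simple keratins took 98.6% to 99.3% in CONTROL and 87.9% to 95.9% in HOXA13. The 15 hair keratins took 2.03% to 9.77% in HOXA13, in each library more than the 10 members. In CONTROL 2 and CONTROL 3 they took 0.037% and 0.0569%, and in CONTROL 1 they had 0 counts (95% Wilson upper bound 0.0198%). Of these Krt34 and Krt31, type I keratins of the hair shaft, were the only genes called by edgeR among the 21 keratins tested of 52 listed (0.309% of all genes). Both had 0 counts in every CONTROL library and so passed the filter through their HOXA13 counts alone. The count of hair keratins called was 6 of 11 tested with DESeq2, 6 of 14 without a filter and 6 of 11 without CONTROL 2, all higher. All those called by DESeq2 had 0 counts in every CONTROL library, as had those called without a filter except Krt36. All those called without CONTROL 2 had 0 counts in CONTROL 1 and CONTROL 3. Such genes could only come out higher, so no conclusion is drawn from these counts. Over all genes, DESeq2 called 3.11% as higher, the fit without a filter 117 of 17697 and that without CONTROL 2 7.92%. The count of hair keratins was 0 with limma voom, when genes had to average 50 counts and with the replicate number as a block. It was also 0 without CONTROL 1, CONTROL 3, HOXA13 2 or HOXA13 3.

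Krt15 lies between a simple keratin and hair keratins on chromosome 11 (mm9, chr11:99993072-99997263, minus strand). In the direction of transcription the Krt19 start is 12.7 kb before that of Krt15, and the starts of Krt13, Krt36, Krt31 and Krt34 follow it at 14.4, 30.3, 85.4 and 94.4 kb. Krt14 and Krt17 are 71.6 and 125 kb before it. The neighbours on both sides differed in the gap between the groups: the CONTROL and HOXA13 means were 429 and 1120 CPM for Krt19, 2.17 and 3.0 CPM for Krt13, and 0.4 and 21.6 CPM for the hair keratin Krt36, whose CONTROL reads all came from CONTROL 2. Krt10 lies 747 kb away in the same cluster. On chromosome 15, Krt6a and Krt6b start 18.6 and 32.6 kb after Krt5.

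**Figure D4:**
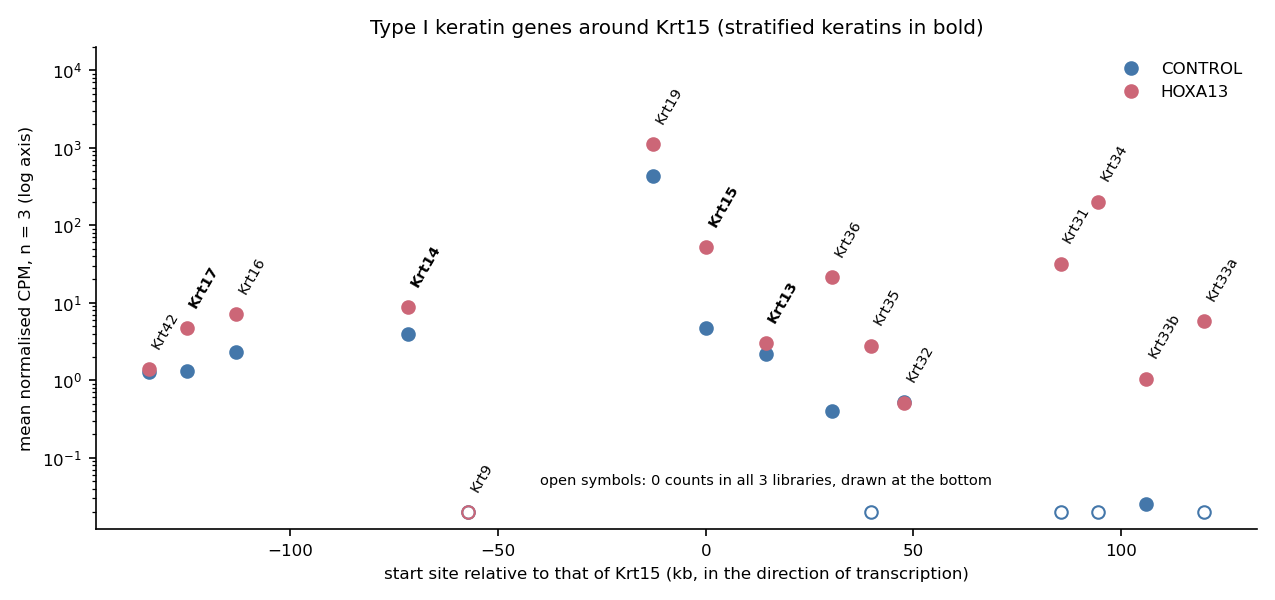
Mean normalised CPM (n = 3, log axis) of type I keratin genes against the distance of their start from that of Krt15 in kilobases, in the direction of transcription, CONTROL in blue and HOXA13 in red, with open symbols for genes at 0 counts. The gap between the groups is wide at Krt15 (4.69 and 52.4 CPM) and narrow at its neighbour Krt13 (2.17 and 3.0 CPM).

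Among 10725 genes averaging 5 CPM or more, those most like Krt15 over the 6 libraries by the Pearson correlation of log2 CPM were Fam167a and Diap3 (both 0.996) and Krt36 (0.993). For Krt17 they were Baiap2l1 (0.986), Abcb8 and Ap3m1 (both 0.979), and for Krt14 Aldh6a1 (0.992), Rab23 (0.988) and Ttf1 (0.976). Those of Krt13 were Pacrgl (0.993), Dclre1c and Dnaaf2 (both 0.979), and those of Krt10 were Zbtb2 and Hmox2 (both 0.992) and Tmem245 (0.969). The 5 members had no gene in common among these, and with 6 libraries in groups of 3 such values are a description of these libraries.

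Other keratins of stratified epithelia were likewise low. Of 11 listed, 4 passed the filter and 0 were called by edgeR, with 0 at an unadjusted p under 0.05. DESeq2 called 0, limma voom 1 and edgeR without CONTROL 2 called 1, Krt16. The most abundant was Krt16, a type I keratin of wounds that pairs with Krt6a. In CONTROL it was at 0.355, 6.16 and 0.375 CPM and in HOXA13 at 4.3, 8.32 and 8.55 CPM, so CONTROL 2 was within the HOXA13 range. Its log2 fold change was 1.62 ± 1.07 with an edgeR adjusted p of 0.563. Without CONTROL 2 the Krt16 groups did not overlap, at 0.355 and 0.375 CPM against 4.3 to 8.55 CPM, so this fold change understates that gap. Among the 5 simple keratins 3 were higher in HOXA13 without overlap (11.5% of all genes), and Krt19, the smallest keratin, had the lowest adjusted p of these, 0.102 (edgeR), with a log2 fold change of 1.38 ± 0.29. Of these 5 edgeR called 0 (3 at an unadjusted p under 0.05), DESeq2 called 2, and limma voom and edgeR without CONTROL 2 called 3 each, all higher, where 3.11%, 9.11% and 7.92% of all genes were. Of 9 keratins of the inner root sheath and companion layer of hair 1 was tested, Krt27, with a log2 fold change of 3.5 ± 1.35, groups that overlapped and an edgeR adjusted p of 0.298. It was not called by DESeq2, by limma voom or by edgeR without CONTROL 2.

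**Figure D5:**
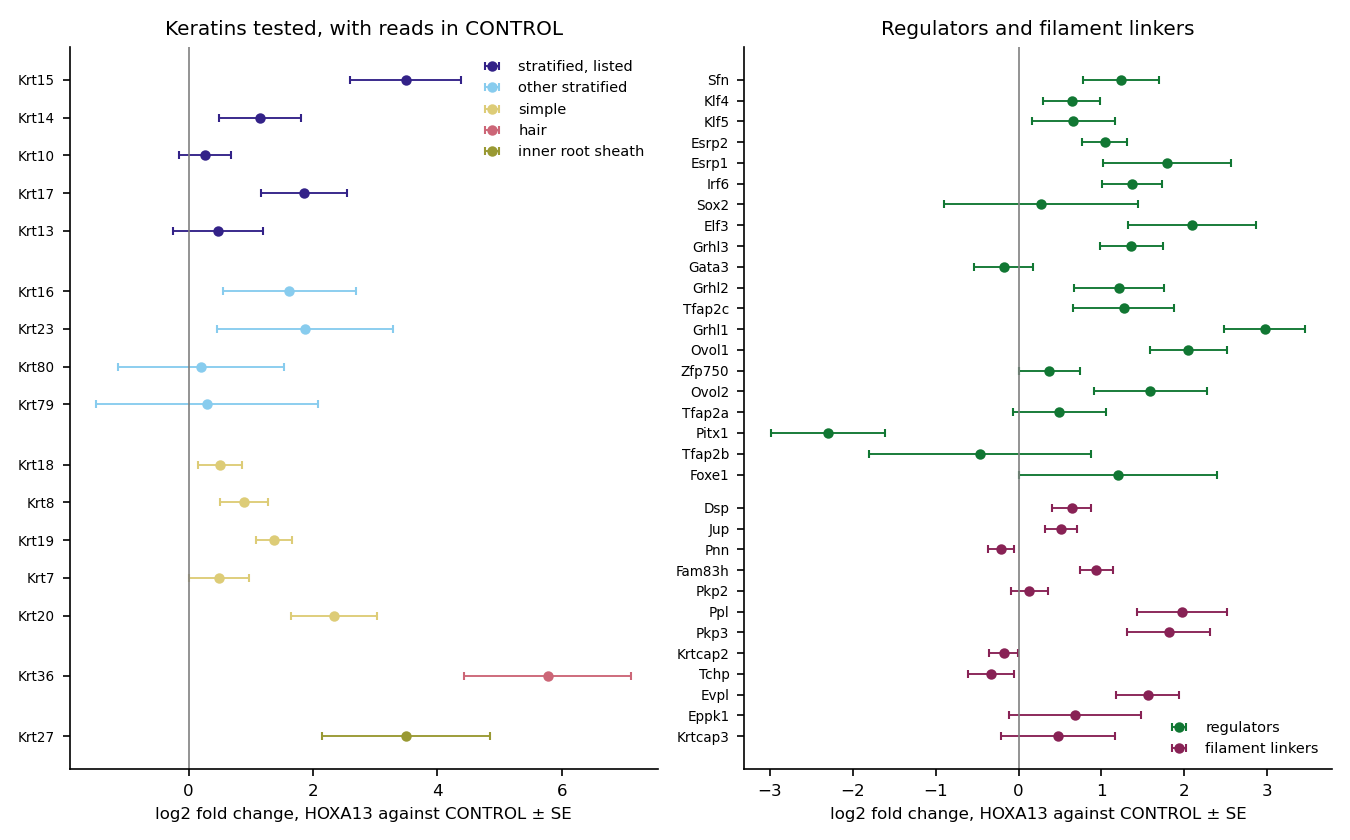
Log2 fold change of HOXA13 against CONTROL with its SE (edgeR) for tested keratins that had reads in CONTROL, on the left, and for regulators of stratified epithelia and proteins that link keratin filaments to junctions, on the right. The largest change among the stratified keratins is that of Krt15 at 3.49, and Krt13 and Krt10 lie within 1 SE of 0.

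Genes that regulate stratified epithelia had log2 fold changes above 0 in 17 of 20 tested, of 22 listed, and 0 passed the threshold in edgeR. DESeq2 called 6 of them, 5 higher and 1 lower, limma voom 14 (13 higher, 1 lower) and edgeR without CONTROL 2 called 13 (12 higher, 1 lower), where 3.11%, 9.11% and 7.92% of all genes were called higher. At an unadjusted p under 0.05 the count was 9 higher (8.05% of all genes) and 1 lower (6.02%), the latter being Pitx1 at -2.3 ± 0.69. Their median log2 fold change was 1.2, beside -0.01 over all genes, and 11 of the 20 were higher without overlap (11.5% of all genes). The most abundant were Sfn, the stratifin of differentiating keratinocytes, at 113 to 494 CPM in CONTROL and 560 to 739 CPM in HOXA13, and the Krüppel-like factor genes Klf4 (log2 fold change 0.64 ± 0.34) and Klf5 (0.66 ± 0.5), whose groups overlapped. Esrp2, an epithelial splicing regulator, had a log2 fold change of 1.04 ± 0.27 with an edgeR adjusted p of 0.15. After the values were seen, Grhl1 was singled out because its adjusted p of 0.0619 was the lowest of the list. It was called by DESeq2, limma voom and the edgeR 4 method, and by edgeR without a filter and without CONTROL 2. It was not called with other scalings, when genes had to average 50 counts, with the replicate number as a block or without any other library. Grhl1, a grainyhead-like factor of epidermis, stood at 3.62, 13.0 and 5.02 CPM in the CONTROL libraries, all below the 42.7, 54.7 and 71.7 CPM of the HOXA13 libraries. Trp63, the gene of the p63 factor that basal cells of stratified epithelia depend on, was looked at for that role. Its CONTROL values were 0.0709, 0 and 0.75 CPM, its HOXA13 values 0, 0.176 and 0 CPM, and it did not pass the filter.

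Genes of proteins that anchor keratin filaments had smaller log2 fold changes than Krt15. Of 15 genes of basal layer adhesion 14 were tested, 0 were called by edgeR and 4 were higher at an unadjusted p under 0.05 (8.05% of all genes), with a median log2 fold change of 0.87. DESeq2 called 2, limma voom 6 and edgeR without CONTROL 2 called 5, all higher, beside 3.11%, 9.11% and 7.92% of all genes. Itga6, the integrin chain of hemidesmosomes, had 0.86 ± 0.22 (adjusted p 0.146), without overlap. Plec, which links filaments to hemidesmosomes, had -0.18 ± 0.24, and Dst, its relative, 0.37 ± 0.18. Of 12 filament linkers, all tested, 0 were called by edgeR and 6 were higher at an unadjusted p under 0.05, with a median of 0.57. Against the same shares of all genes, DESeq2 called 4, limma voom 6 and edgeR without CONTROL 2 called 4, all higher. Dsp, the desmosomal plaque protein that binds keratins, had 0.64 ± 0.24, Jup 0.51 ± 0.19, Fam83h 0.94 ± 0.2 and Pnn -0.21 ± 0.16.

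Markers of epithelium and of mesenchyme also differed between the libraries. The 5 epithelial sort markers and their partners summed to 805 to 4380 CPM in CONTROL and 5240 to 6130 CPM in HOXA13, with 4 of 5 higher without overlap (11.5% of all genes). EdgeR called 0 of them, with 4 higher at an unadjusted p under 0.05, DESeq2 called 0, and limma voom and edgeR without CONTROL 2 called all 5 as higher (9.11% and 7.92% of all genes). The most abundant was Cldn4, a claudin of tight junctions, with means of 1260 CPM in CONTROL and 2640 CPM in HOXA13. Cdh1, the gene of E-cadherin, was lowest in CONTROL 1 at 192 CPM, with 1290 and 702 CPM in CONTROL 2 and 3 and 1730, 1690 and 1890 CPM in the HOXA13 libraries. The 25 mesenchymal and feeder markers summed to 4080 to 15500 CPM in CONTROL and 3190 to 6950 CPM in HOXA13, and 22 of them were tested. Of these 19 had a log2 fold change below 0 (51.2% of all genes), with a median of -1.38, and 8 were lower (6.02% of all genes) and 0 higher at an unadjusted p under 0.05. EdgeR called 0, DESeq2 2, limma voom 7 and edgeR without CONTROL 2 called 9, all lower. Over all genes the latter 3 fits called 1.94%, 6.34% and 6.32% as lower. Fn1, the fibronectin gene and the most abundant of the list, had a log2 fold change of 0.35 ± 0.37, against -2.64 ± 0.78 for Vim, the intermediate filament gene of mesenchyme, -1.43 ± 0.3 for Sparc and -2.16 ± 0.82 for Tagln. Of the definitive endoderm markers 9 were tested, with 5 above 0, a median log2 fold change of 0.48 and 0 called by edgeR. At an unadjusted p under 0.05 the count was 1, Eomes, which was lower in HOXA13 without overlap (8.52% of all genes). DESeq2 called 1 of them, and limma voom and edgeR without CONTROL 2 called 2 each, all lower. CONTROL 2 was the CONTROL library with the highest epithelial and the lowest mesenchymal sum. It also had the highest Krt15 of the CONTROL libraries. The 10 pluripotency markers summed to 1170 CPM in CONTROL 2 and to 45.5 and 94.1 CPM in CONTROL 1 and CONTROL 3, against 205 to 516 CPM in HOXA13. EdgeR called 0 of them (0 at an unadjusted p under 0.05) and DESeq2 0, while limma voom called 3 and edgeR without CONTROL 2 called 5, all higher. The most abundant was Pou5f1, at 310 CPM in CONTROL 2, 0.851 and 5.77 CPM in CONTROL 1 and CONTROL 3 and 10.1 to 75.9 CPM in HOXA13. The 12 markers of early surface ectoderm and trophoblast summed to 1120 to 2980 CPM in CONTROL and 2940 to 3930 CPM in HOXA13, mostly from Krt8 and Krt18. The other 10 summed to 192 to 400 CPM in CONTROL and 342 to 425 CPM in HOXA13, and among these, singled out after the values were seen, Gata2 and Hand1 were lower and Tfap2c and Tead4 higher in HOXA13 without overlap. EdgeR called 0 of the 12, with 2 higher and 1 lower at an unadjusted p under 0.05, DESeq2 called 0, limma voom 5 (4 higher, 1 lower) and edgeR without CONTROL 2 called 4, all higher.

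Set against Cdh1 in the same library, a measure chosen after the data were seen, Krt15 kept groups that did not overlap. Per 1000 units of Cdh1 CPM, the CONTROL libraries had 9.6, 8.48 and 1.82 of Krt15, and the HOXA13 libraries had 11.6, 26.1 and 49.1, a difference of 2.22 between the mean log2 values of the groups. HOXA13 1 was close to CONTROL 1 on this scale. Krt17, at 1.36 to 4.43 in CONTROL and 1.49 to 3.91 in HOXA13, overlapped, with a difference of 0.12 on that scale. For Krt14, Krt13 and Krt10 the difference was -0.87, -1.16 and -1.45, with groups that overlapped. The part of the other cell type markers in these differences was not tested.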

How the data were processed

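Each deposited list gives, for 1 library, the raw count of reads per gene. The authors sequenced 75-base reads from directional poly-A libraries, aligned them to mm9 with TopHat and counted them with HTSeq 0.6.1p1. The submitters' processing notes name TopHat2 2.0.14 and bcl2fastq 2.17. The annotation, the strand option and the handling of reads with several alignments are not given in the sources used here. Group and replicate were read from the sample titles.

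The groups were compared with edgeR 4.0.16 in R 4.3.3 (filterByExpr with a minimum count of 10 and a minimum total of 15, TMM scaling, glmQLFit and glmQLFTest on the group alone, Benjamini-Hochberg adjustment over the 13600 genes kept, threshold 0.05). The SE of a log2 fold change was derived from the F statistic. Code was tested on simulated data. Levels per length used the summed exons of GENCODE M1, which is on NCBIM37 (mm9), and sequences came from that genome. All 10 members had a position. Two-sided exact permutation tests used normalised CPM. The alternatives tried were DESeq2 1.42.0, which the study used, limma 3.58.1 voom with sample quality weights, other scalings and filters, the edgeR 4 method, a replicate block, and each library left out in turn. With 1 library left out, the remaining libraries share 1 estimate of spread.

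The members and gene lists were chosen with earlier results of these data known. All members were named. From each list the text names the called genes or otherwise up to 4 genes of highest mean CPM, and exceptions are stated. The values of 1 gene of these lists are not reported here. Genes most alike were ranked over log2 CPM with a prior count of 2.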

Additional observations from a re-analysis of the deposited data

How the results depend on the processing

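The count of stratified keratins called was 0 with edgeR on all libraries and 1, Krt15 in each case, with DESeq2, with limma voom and without CONTROL 2. It was 0 under the other alternatives, and leaving out each library gave 0 to 1. Over all genes the count was 42 of 13600 tested with edgeR, 722 of 14298 with DESeq2 and 2101 of 13600 with limma voom. It was 106 of 13600 with the edgeR 4 method and 34 of 13600 with RLE scaling. Without a filter it was 163 of 17697, and 9 of 11292 when genes had to average 50 counts. Leaving out each library gave 0 to 2006, the highest without CONTROL 2 (of 14084 tested), and the cause was not tested. Of the genes of the comparison lists 2 of 113 tested were called with edgeR, 23 of 116 with DESeq2 and 49 of 113 with limma voom. The count was 10 of 138 without a filter, 1 of 113 with RLE scaling and 0 of 94 under the filter on 50 counts. Leaving out each library gave 0 to 54, the highest without CONTROL 2 (of 119 tested). Leaving out each library, the log2 fold change of Krt10 was between -0.08 (without HOXA13 2) and 0.38. Relative to Cdh1, an alternative added after the data were seen, Krt17 was at 0.12, Krt14 at -0.87, Krt13 at -1.16 and Krt10 at -1.45. The median log2 ratio of Krt8 to Krt18 was -0.31 in CPM and -0.67 per length. At this depth a level under 0.240 CPM was not detectable, which covers most values of the type II members.

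The labels do not state whether the shared replicate numbers pair the libraries. Same-numbered libraries deviated from their group means with correlations of -0.21, -0.271 and 0.098, a mean of -0.128, against 0.0723 for other pairs. Deviations sum to 0 within each group, which ties these values to each other, so they cannot decide whether the libraries are paired. With the replicate number as a block edgeR called 0 genes, with 1392 at an unadjusted p under 0.05, 0 stratified keratins and 0 genes of the comparison lists. Krt15 then had a log2 fold change of 3.74 and an adjusted p of 0.251.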
